A study of Mus musculus with 12 samples.

Results

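Many mouse genes still carry the name of the RIKEN cDNA clone from which they were first read, and symbols that begin with 4921, 4932 or 4933 and end in Rik go back to clones taken largely from testis. The genes described here are all those with such a symbol and a probe-set of their own on the array. The rule used names only, with no measured value, and gave 146 probe-sets for 130 genes of the 22180 genes with their own probe-set, 21 genes with the prefix 4921, 14 with 4932 and 95 with 4933. Where a gene had several probe-sets (8 genes), the brightest on average was taken. Another 28 probe-sets that carry such a symbol together with another gene's were not used, since their signal cannot be given to 1 gene, and 4 symbols occur only there.

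The 12 arrays measured gene expression in whole corpus and cauda epididymidis of control mice and mice with a conditional knockout of Dicer1, with 3 arrays for each of 4 groups. Dicer1 is the enzyme that cuts microRNAs out of their precursors. Control mice were Dicer1fl/fl and the conditional knockout mice (cKO) were Defb41-iCre;Dicer1fl/fl, so the floxed Dicer1 alleles were shared by all groups, as was a mixed C57Bl/6N and SV129 background. The age of the mice is not stated in the labels. The Defb41 promoter drives the recombinase in principal cells at the head of the duct (initial segment and caput), upstream of both regions sampled, and all 3 mice of a genotype gave tissue of both regions. The labels do not say which corpus and cauda arrays share a mouse, and p-values measure the spread between arrays only.

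The epididymis receives sperm from the testis and carries them through caput, corpus and cauda, where they are stored. Mature sperm no longer transcribe but keep remnants of the RNA made in round spermatids, so an RNA sample of a whole epididymal region holds transcripts of the duct epithelium, of the muscle and immune cells around it, and of the sperm in its lumen. A gene first cloned from testis may be a spermatid gene, or a widely used gene that was cloned there by chance, and a clone name by itself does not say which. Of the 130 genes, RefSeq listed 89 as long non-coding RNA (lncRNA), 33 as protein coding and 7 as transcribed pseudogenes, and 1 had no entry in the table used.

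Values are log2 intensities, so a difference of 1 is a 2-fold difference. Median intensity of the arrays lay between 5.19 and 5.31, and arrays correlated with r of 0.970 to 0.985 within groups and 0.957 to 0.984 between groups. Dicer1 itself, measured over the whole transcript and in regions where the recombinase is not driven, lay between 7.37 and 7.77 on all arrays, with a log2 difference between cKO and control of 0.05 ± 0.12 (SE) in corpus and 0.17 ± 0.12 in cauda, which does not test the labels. Markers of other cells in the tissue were read on every array. Smooth muscle genes (7 of 7 measured) had mean levels of 9.30 to 10.72 in corpus and 11.51 to 11.95 in cauda, the region with the thicker muscle coat, and all 7 were higher in cauda of control mice at an adjusted p under 0.05. All 7 smooth muscle genes were higher in corpus cKO than in corpus control on average, as were 6 of 6 leukocyte genes (of 7 listed), with mean levels of 7.23 to 7.67 in control and 7.76 to 9.24 in cKO, and 5 of the former and 4 of the latter had an unadjusted p under 0.05. Epididymal epithelium genes (8 of 10 measured) had mean levels between 8.85 and 9.81 over all arrays, with Cftr the only one below the median of all values on every array, and 7 of the 8 were lower in corpus cKO on average (median -0.40), 3 of them (Aqp9, Cd52 and Adam7) at an unadjusted p under 0.05. Their mean was 9.16, 9.31 and 9.63 on corpus cKO replicates 1, 2 and 3, against 9.65 to 9.81 in corpus control.

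Most of the RIKEN genes gave little signal. The median of all values on the 12 arrays was 5.23, and 106 of the 130 genes had a mean at or below it, whereas 13934 of 22180 genes lay above it. The median level of the 130 genes was 4.14, against 4.24 for 648 other Rik genes from testis libraries, 4.84 for the 815 remaining Rik genes and 6.05 for all genes. On every array 95 genes stayed below the median, and 15 genes, 8 of them protein coding and 7 lncRNA, stayed above it. Of the 33 protein-coding genes 11 had a mean above the median, and of the 89 lncRNA genes also 11. No background level was measured here, so how far such low values lie above it is unknown, and all 130 genes stayed in every count below.

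**Figure D1:**
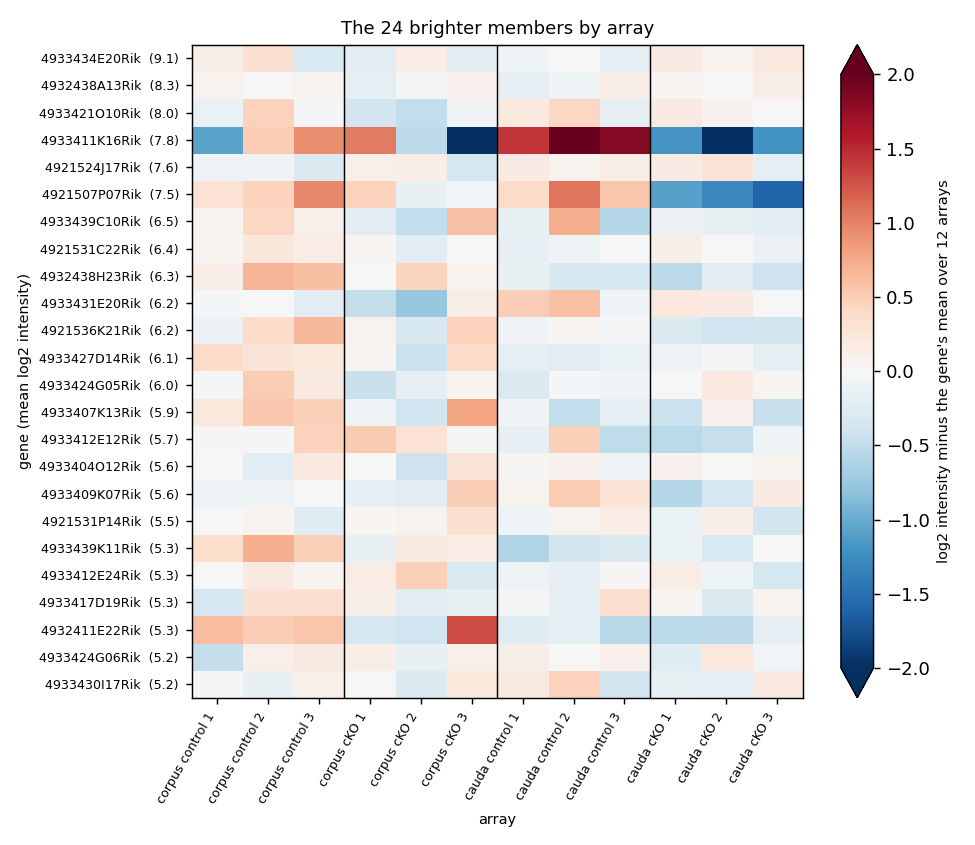
Log2 intensity of the 24 RIKEN genes with a mean above the median of all values, shown for each of the 12 arrays as the difference from the gene's mean (mean in brackets, colours end at a difference of 2 in either direction). Most rows are pale, whereas 4933411K16Rik and 4921507P07Rik are dark blue on all 3 cauda cKO arrays, and 4932411E22Rik is red on corpus cKO replicate 3.

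Of the 8 brightest genes, 7 had no adjusted p under 0.05 in any comparison (limma), and the other, 4921507P07Rik, had one between the regions of cKO mice. 4933434E20Rik was the brightest, between 8.83 and 9.44 on all 12 arrays, and RefSeq gives NICE-3 as another of its names. Its means were 9.17 ± 0.31 (SD, n = 3) in corpus control, 9.03 ± 0.21 in corpus cKO, 9.04 ± 0.10 in cauda control and 9.28 ± 0.07 in cauda cKO. 4932438A13Rik, which RefSeq also lists as Tweek and which belongs to the bridge-like lipid transfer proteins that move lipids between membranes, stayed between 8.12 and 8.45. Both are protein coding. In 4933434E20Rik the cauda arrays of the 2 genotypes do not overlap, but by a small step of 0.24 ± 0.17 (SE, adjusted p = 1.000 by limma).

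The next genes were mostly without a known role. The lncRNA 4933421O10Rik ranged from 7.49 to 8.44, and the protein-coding 4921524J17Rik from 7.23 to 7.85. The lncRNAs 4933439C10Rik and 4921531C22Rik ranged from 5.97 to 7.27 and from 6.18 to 6.61. The other 2 of the 8, 4933411K16Rik and 4921507P07Rik, are protein coding and are described with the cauda comparison. Over all 130 genes the median range between the lowest and the highest array was 0.79, and 7 genes had a range over 2, led by 4933411K16Rik with 4.61.

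Further genes with an annotated role were chosen after their values were seen. 4933427D14Rik, which RefSeq also lists as MNR, a protein of centriolar satellites, had means of 6.34 ± 0.09 (SD, n = 3) in corpus control, 6.06 ± 0.41 in corpus cKO, 5.89 ± 0.04 in cauda control and 5.95 ± 0.07 in cauda cKO. 4933407K13Rik, also named Dxz4, is the transcript of an X-linked repeat array that organizes the folding of the inactive X chromosome, and its means were 6.33 ± 0.17, 6.03 ± 0.61, 5.67 ± 0.21 and 5.66 ± 0.30 in the same order. Both lay above the median of all values on every array.

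In cauda 5 genes were lower in cKO at the study's own threshold (unadjusted p under 0.002 and more than a 2-fold difference) and none was higher, against 0.721% of all 41345 probe-sets lower and 0.029% higher. That is 3.85% of the 130 genes. The 5 were 4933411K16Rik, 4921507P07Rik, 4933409G03Rik, 4933402J07Rik and 4932414N04Rik, all of them protein coding. In RNA of whole tissue fewer cells of a type and less RNA per cell cannot be told apart. None reached an adjusted p under 0.05 in the limma fit (Benjamini-Hochberg adjustment across the whole array), where 0% of all probe-sets did so, and none did with the variance of each probe-set alone. At an unadjusted p under 0.05, 19 genes were lower (14.6%) and none higher, against 3.83% of all probe-sets lower and 1.83% higher. With each probe-set's own variance 18 genes had such a p.

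4933411K16Rik gave the largest difference. It read 9.27, 10.29 and 9.68 on the cauda control arrays and 6.66, 5.67 and 6.65 on the cauda cKO arrays. The groups do not overlap, and every cKO array is at least 2 units below every control array. The log2 difference was -3.42 ± 0.71 (SE, 95% interval -4.97 to -1.86, adjusted p = 0.148 by limma), a 10.7-fold lower mean. In corpus the same gene varied within groups, with 6.77, 8.35 and 8.78 in control and 8.88, 7.32 and 5.79 in cKO, so that the corpus groups overlap (-0.63 ± 0.71, adjusted p = 0.888). The study's threshold was missed in cauda without cauda control replicate 2 (-3.14) or cauda cKO replicate 2 (-3.09), and with each probe-set's own variance, while the direction stayed. The gene lies within the bounds of Hoga1, a mitochondrial enzyme of hydroxyproline breakdown, and the probe-set of Hoga1 did not follow it, with a log2 difference in cauda of -0.16 ± 0.16.

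4921507P07Rik had a high level and spread less within groups than 4933411K16Rik. RefSeq gives 4921507P07Rik the further name TISP74, from a series of transcripts induced in spermiogenesis. Cauda control arrays read 7.86, 8.56 and 8.03 and cauda cKO arrays 6.39, 6.19 and 5.87. The cKO arrays are lower than all 9 other arrays, including those of corpus, where control read 7.76, 7.94 and 8.44 and cKO 7.94, 7.33 and 7.42. The log2 difference in cauda was -2.00 ± 0.25 (95% interval -2.54 to -1.45, adjusted p = 0.0517 by limma), a 4.00-fold lower mean. The call at an adjusted p of 0.05 thus depended on the processing: it was made in 11 of 21 alternative settings, with the lowest adjusted p at 0.0191 where only probe-sets with 1 gene symbol were tested. The gene overlaps another RIKEN gene, 5430402O13Rik, whose own probe-set differed in cauda by -0.16 ± 0.17.

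4933402J07Rik read 5.65, 6.56 and 6.01 in cauda control and 4.50, 4.43 and 4.28 in cauda cKO. The difference was -1.67 ± 0.28 (adjusted p = 0.0969 by limma) with no overlap. The cKO values lie below the median of all values, where the level above background is unknown, so no fold is given. Of the 21 alternative settings 20 kept it past the study's threshold, and it was not among the probe-sets tested in the other. The gene overlaps no other gene in the RefSeq table.

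4933409G03Rik and 4932414N04Rik lie next to each other on chromosome 2, with no RefSeq gene between them. 4933409G03Rik read 5.31, 6.22 and 6.52 in cauda control and 3.95, 4.03 and 4.31 in cauda cKO, a difference of -1.92 ± 0.43 (adjusted p = 0.166 by limma). 4932414N04Rik read 5.18, 5.65 and 6.01 in cauda control and 4.52, 4.50 and 4.65 in cauda cKO, a difference of -1.06 ± 0.22 (adjusted p = 0.144 by limma). In both genes the groups do not overlap, cauda control replicate 1 is the lowest control array, and the cKO values lie below the median of all values, so the differences are those of the measured values and no fold is given. The threshold was missed by 4933409G03Rik with each probe-set's own variance and without each cauda array except cauda control replicate 1, and its difference was -1.66 without cauda control replicate 3. 4932414N04Rik missed it without cauda control replicate 3 (-0.86), cauda cKO replicate 1 (-1.04) or cauda cKO replicate 2 (-1.03).

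**Figure D2:**
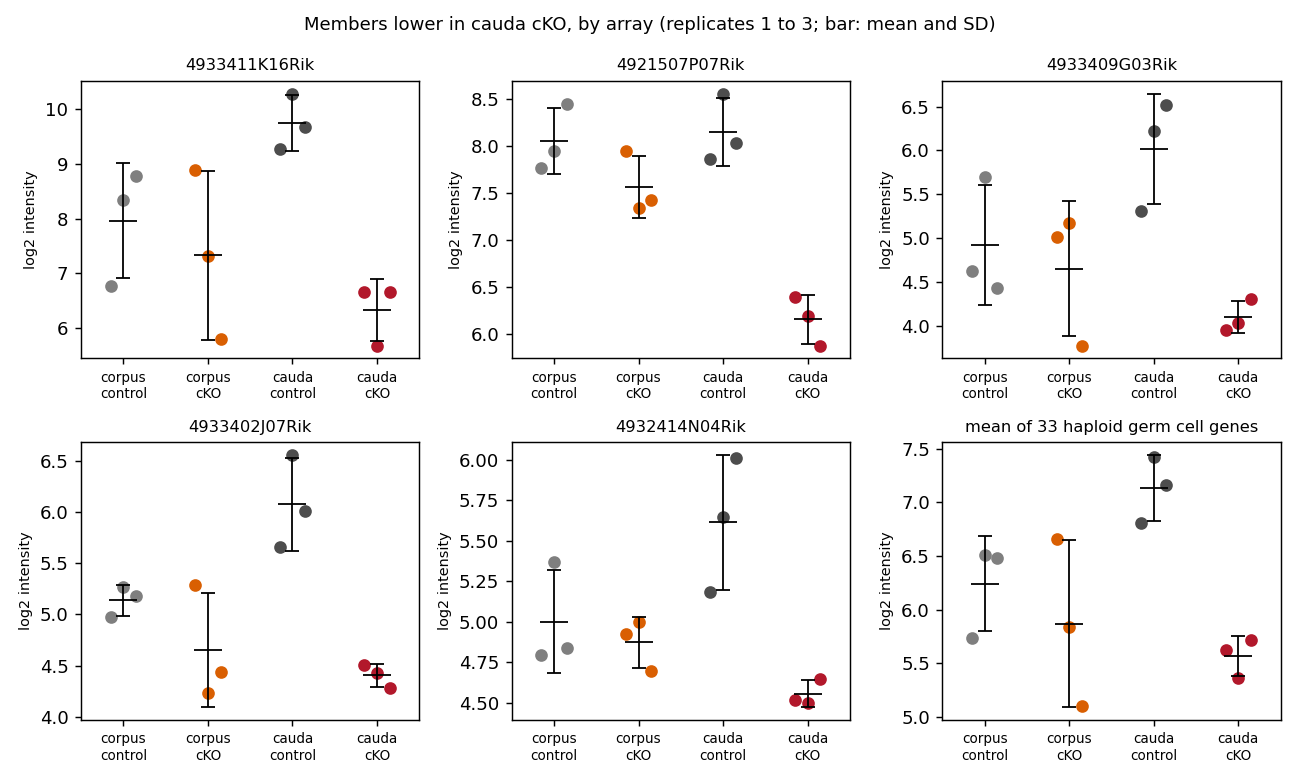
Log2 intensity of the 5 RIKEN genes past the study's threshold in cauda and, last, the mean of 33 haploid germ cell genes, on each array (points, replicates 1 to 3 from left to right) with group mean and SD (bars, n = 3). The cauda cKO arrays lie below the cauda control arrays in all 6 panels, and corpus cKO replicate 3 is the lowest array of 4933411K16Rik within corpus at 5.79.

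The RefSeq promoters of 4 of these genes are printed because these genes differed most and, in the case of the pair on chromosome 2, because they are neighbours. Each runs from 250 bases before to 50 bases after an annotated start (build GRCm38.p6), at chr19:42051978-42052277 on the plus strand for 4933411K16Rik, chr6:50596541-50596840 on the minus strand for 4921507P07Rik, chr2:68582163-68582462 on the plus strand for 4933409G03Rik and chr2:68657634-68657933 on the plus strand for 4932414N04Rik. The windows of 4921507P07Rik and 4932414N04Rik lie inside the RefSeq bounds of these genes, which reach to 50596852 and begin at 68656791. For these 2 genes the sequence before the outer bound was therefore not searched. Capitals mark matches on either strand to the 5 motifs searched, which bind regulators of spermatocyte and spermatid genes or the general transcription machinery: the cAMP response element TGACGTCA, its shorter core TGACG, the RFX site GTTGCC, the MYB core AACNGNC and the TATA box TATAAA.
4933411K16Rik: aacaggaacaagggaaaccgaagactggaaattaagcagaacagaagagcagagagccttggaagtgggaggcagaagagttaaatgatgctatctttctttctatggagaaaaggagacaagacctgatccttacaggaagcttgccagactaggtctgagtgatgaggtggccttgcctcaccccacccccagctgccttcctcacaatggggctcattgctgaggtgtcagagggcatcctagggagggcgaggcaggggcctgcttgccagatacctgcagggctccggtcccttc
4921507P07Rik: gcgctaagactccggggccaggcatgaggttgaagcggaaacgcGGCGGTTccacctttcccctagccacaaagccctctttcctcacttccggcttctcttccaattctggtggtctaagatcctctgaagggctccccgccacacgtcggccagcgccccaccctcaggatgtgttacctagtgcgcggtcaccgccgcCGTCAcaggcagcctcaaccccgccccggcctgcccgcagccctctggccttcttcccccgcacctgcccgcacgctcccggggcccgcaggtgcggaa
4933409G03Rik: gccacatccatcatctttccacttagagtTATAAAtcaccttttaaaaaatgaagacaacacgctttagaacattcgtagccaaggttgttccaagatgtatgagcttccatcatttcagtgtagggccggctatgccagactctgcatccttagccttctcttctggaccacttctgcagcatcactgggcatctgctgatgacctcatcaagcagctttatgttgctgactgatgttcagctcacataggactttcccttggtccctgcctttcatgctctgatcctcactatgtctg
4932414N04Rik: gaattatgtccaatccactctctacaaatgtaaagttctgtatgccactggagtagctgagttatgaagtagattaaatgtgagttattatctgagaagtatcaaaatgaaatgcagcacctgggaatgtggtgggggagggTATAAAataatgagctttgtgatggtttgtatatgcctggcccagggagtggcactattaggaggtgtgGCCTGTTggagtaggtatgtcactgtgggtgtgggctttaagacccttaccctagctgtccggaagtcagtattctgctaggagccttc

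4933411K16Rik held none of these letters in this window. 4921507P07Rik held the MYB core and the shorter core of the cAMP response element, both on the opposite strand. The neighbours 4933409G03Rik and 4932414N04Rik both held TATAAA, the latter with the MYB core on the opposite strand as well. TATAAA stood in 13.6% of all 32851 promoters and in 9.91% of the 111 promoters of 103 RIKEN genes that had one. The MYB core stood in 32.8% of all promoters and 40.5% of those of the RIKEN genes, TGACG in 20.8% and 13.5% (it overlaps the full element, at 1.79% and 0.901%), and GTTGCC in 12.5% and 18%. A match is a description of the letters and not a binding site. The count of CG dinucleotides was looked at after the values were seen: the 4921507P07Rik promoter held 25, and those of 4933411K16Rik, 4933409G03Rik and 4932414N04Rik held 3, 3 and 1, against a median of 7 over all promoters and 4 over those of the RIKEN genes.

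The 19 genes with an unadjusted p under 0.05 in cauda were 10 protein-coding genes, 6 lncRNAs and 3 transcribed pseudogenes. Their log2 differences ran from -3.42 to -0.29 with a median of -0.67, and 7 were more than 2-fold lower. In 15 of the 19 the cauda groups did not overlap. Over all 130 genes, 19 were lower without overlap (14.6%) and 4 higher, against 5.65% and 5.13% of all probe-sets. 16 of the 19 had a mean at or below the median of all values. The median difference was -0.10 over the 130 genes and 0.03 over all genes, and it was -0.09 among the 24 brighter genes and -0.10 among the 106 dimmer ones. The median over the members ran from -0.10 to -0.05 in the alternative settings and from -0.14 to -0.08 without 1 array. Median intensity of all probe-sets was 5.19, 5.29 and 5.31 on the cauda control arrays and 5.22, 5.22 and 5.19 on the cauda cKO arrays.

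2 genes of the 7 with more than a 2-fold difference missed the study's p, and are named after their values were seen. The lncRNA 4933432K03Rik read 4.86, 6.42 and 5.87 in cauda control and 4.22, 4.42 and 4.47 in cauda cKO (-1.35 ± 0.35, adjusted p = 0.238 by limma). 4921528I07Rik, which is protein coding, read 5.93, 4.99 and 8.04 in cauda control and 3.99, 4.81 and 4.42 in cauda cKO (-1.91 ± 0.79, adjusted p = 0.783). The latter also spread widely in corpus, from 3.61 to 6.04, and its lowest cauda control array is only slightly above its highest cauda cKO array.

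**Figure D3:**
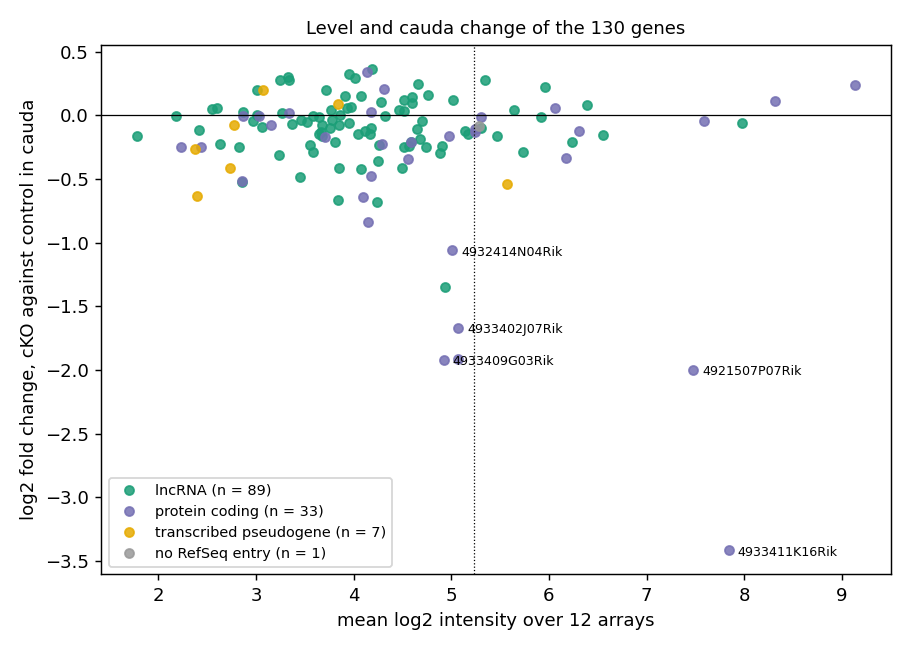
Mean log2 intensity over 12 arrays (x axis) against the log2 difference between cKO and control in cauda (y axis) for each of the 130 genes, coloured by RefSeq class, with the median of all values as a dotted line. Most genes lie to the left of the line between -0.5 and 0.4, and the 5 named genes lie between -1.06 and -3.42.

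The lower values in cauda were shared by most of the listed genes with a known place in sperm. Of 33 haploid germ cell genes measured (of 34 listed), 31 had a lower mean in cauda cKO, 26 had an unadjusted p under 0.05 and 14 passed the study's threshold, with a median log2 difference of -1.36, and none reached an adjusted p under 0.05 in limma. Prm1, a protamine that packs sperm DNA, read 9.46 to 10.23 in cauda control and 6.59 to 7.84 in cauda cKO (-2.60), and Tnp1, a transition protein of the spermatid nucleus, read 7.83 to 8.96 and 5.36 to 5.81 (-2.90). The 2 genes with a higher mean were Spaca3 (0.14) and Odf1 (0.03), the brightest of the list at 11.80 to 12.34 on all arrays. The mean over the 33 genes was 6.81, 7.43 and 7.16 on the cauda control arrays and 5.63, 5.36 and 5.71 on the cauda cKO arrays. In corpus it was 5.73, 6.51 and 6.49 in control and 6.66, 5.84 and 5.11 in cKO, so corpus cKO replicate 3 was lowest and corpus cKO replicate 1 highest. 4933411K16Rik had the same lowest and highest corpus arrays. In 4933409G03Rik (3.77) and 4932414N04Rik (4.69) corpus cKO replicate 3 was also lowest, but corpus control replicate 2 was highest (5.70 and 5.37). In 4933402J07Rik corpus cKO replicate 1 was highest (5.29) and corpus cKO replicate 2 lowest (4.23), and in 4921507P07Rik corpus control replicate 3 was highest and corpus cKO replicate 2 lowest. Of 12 meiotic genes (of 13 listed) 6 were lower at an unadjusted p under 0.05, with a median difference of -0.40. The part of sperm content in the differences of the RIKEN genes was not tested. Smooth muscle, leukocyte, epididymal epithelium and Leydig or Sertoli cell genes (6 of 7 measured) had median differences in cauda of 0.16, 0.26, -0.02 and 0.02, and none of them had an unadjusted p under 0.05.

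Other clone-named genes were read for comparison. Of the 648 other Rik genes from testis libraries, 104 were lower in cauda cKO at an unadjusted p under 0.05 (16.0%) and 3 higher, 19 passed the study's threshold downwards (2.93%), and the median difference was -0.09. Those with the smallest p were 1700009J07Rik (-1.28), 1700020G17Rik (-1.55), 1700010D01Rik (-2.00) and 1700012A03Rik (-1.76). Of the 815 remaining Rik genes, which carry other prefixes, 16 were lower and 14 higher at an unadjusted p under 0.05, 2 passed the study's threshold downwards, and the median was 0.02. Those 2 were 1110017D15Rik (-1.66) and 2610318N02Rik (-2.59). The shares of the 130 genes thus lie near those of the other testis clones, and the difference between the lists was not tested.

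**Figure D4:**
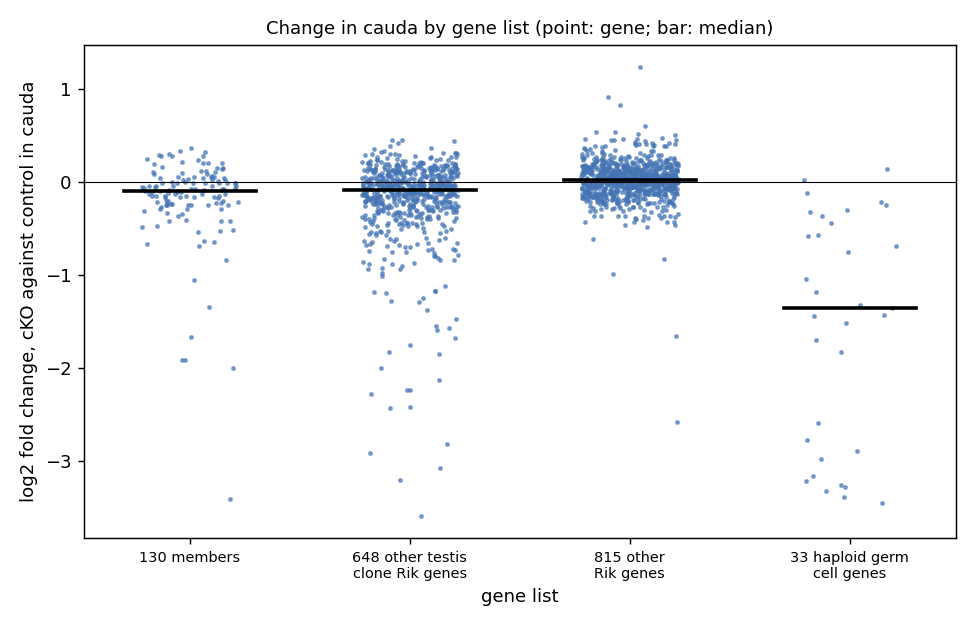
Log2 difference between cKO and control in cauda (y axis) for each gene (points) of 4 lists, with the list median as a bar. The medians are -0.10 for the 130 RIKEN genes, -0.09 for 648 other testis clone genes, 0.02 for 815 other Rik genes and -1.36 for 33 haploid germ cell genes.

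In corpus 10 RIKEN genes (7.69%) were lower in cKO without overlap and none higher, against 5.99% and 5.85% of all probe-sets. None reached an adjusted p under 0.05 in limma, as for all probe-sets (0%), and none did with each probe-set's own variance. None passed the study's threshold in either direction, against 0.213% of all probe-sets higher and 0.0919% lower. At an unadjusted p under 0.05, 3 genes were lower and none higher (5 genes in all with own variances), against 4.09% and 4.26% of all probe-sets. The 3 were 4933439K11Rik (-0.46 ± 0.15), 4932435O22Rik (-0.51 ± 0.20) and 4933424G05Rik (-0.40), all lncRNAs, the last named after its values were seen. The second, dimmer probe-set of 4933424G05Rik differed by -0.07 (adjusted p = 0.940 by limma). Haploid germ cell genes had a lower mean in corpus cKO in 30 of 33 cases (median -0.37, 1 with an unadjusted p under 0.05). Their array means overlapped, with corpus cKO replicate 1 the highest corpus array (6.66) and corpus cKO replicate 3 the lowest (5.11). Of the epithelium genes 7 of 8 were lower in corpus cKO, while smooth muscle and leukocyte genes were higher. The part of any of these lists in the corpus differences was not tested. The median over the 130 genes was -0.08, against -0.03 over all genes.

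1 gene in corpus depended on a single array, corpus cKO replicate 3, which also lay apart from the other corpus cKO arrays over all probe-sets. 4932411E22Rik, the gene with no RefSeq entry, read 5.91, 5.78 and 5.84 in corpus control and 4.95, 4.89 and 6.59 in corpus cKO, and the last of these is the highest of all 12 arrays for this gene. Its difference was -0.37 ± 0.36 (adjusted p = 0.863 by limma) and became -0.92 with an adjusted p of 0.0185 without corpus cKO replicate 3. It was picked out after its values were seen.

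Between regions, few RIKEN genes differed. In control mice 2 were lower in cauda than in corpus at an adjusted p under 0.05 (limma) and none was higher, against 1.75% and 1.77% of all probe-sets. 4933439K11Rik, an lncRNA within the bounds of the cilium gene Cfap45, read 5.69, 6.07 and 5.82 in corpus control and 4.74, 4.97 and 5.05 in cauda control, with no overlap (-0.94 ± 0.15, adjusted p = 0.00672). Cfap45 itself differed by -0.07 ± 0.17 in this comparison. The call for 4933439K11Rik was made in all 21 alternative settings. The protein-coding 4932438H23Rik read 6.44, 6.99 and 6.90 in corpus and 5.98 to 6.16 in cauda (-0.73 ± 0.18, adjusted p = 0.0455), and its second, dimmer probe-set differed by -0.61 with an adjusted p of 0.0767. This call held in 10 of 21 alternatives and was lost without 9 of the 12 arrays in turn, with an adjusted p of up to 0.170 without corpus control replicate 3.

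In cKO mice 1 gene was higher in cauda and 1 lower, against 1.64% and 1.05% of all probe-sets. The lncRNA 4932435O22Rik read 3.54, 3.99 and 3.65 in corpus cKO and 4.87, 4.76 and 4.09 in cauda cKO (0.85 ± 0.20, adjusted p = 0.0472), with no overlap, all of it below the median of all values. The call held in 7 of 21 alternatives, was lost without 10 of the 12 arrays in turn, and the adjusted p rose to 0.182 without cauda cKO replicate 2. 4921507P07Rik was lower in cauda than in corpus of cKO mice (-1.41 ± 0.25, adjusted p = 0.0104), whereas in control mice the regions differed by 0.10 ± 0.25 (adjusted p = 0.900). Without cauda cKO replicate 3 the adjusted p in cKO mice was 0.0557. The median over the 130 genes was 0.03 in control mice and -0.04 in cKO mice, against -0.03 and -0.01 over all genes.

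The test of whether the cKO effect differed between regions shares its arrays with the comparisons above. No gene had an adjusted p under 0.05 in limma (0% of all probe-sets) or with own variances. At the study's threshold 1 gene, 4921507P07Rik, had a higher value in corpus than in cauda for the cKO effect and none a lower one, against 0.196% and 0.0653% of all probe-sets. Its effect was -0.48 ± 0.25 in corpus and -2.00 ± 0.25 in cauda, a difference of 1.52 ± 0.35 (adjusted p = 0.580 by limma). It passed the study's threshold in 11 of 20 alternative settings and was lost without 7 of the 12 arrays in turn, at 1.31 without cauda control replicate 2. At an unadjusted p under 0.05 the difference was positive for 10 genes and negative for 3, against 3.44% and 3.05% of all probe-sets, and 11 genes in all had such a p with own variances.

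3 further genes met the rule for naming in this test, each an lncRNA with an adjusted p of at least 0.659. 4933400L20Rik read 4.01, 4.31 and 4.20 in cauda control and 3.62, 3.39 and 3.52 in cauda cKO, while in corpus it read 3.71, 3.89 and 3.55 in control and 4.02, 4.19 and 3.63 in cKO (difference of the effects 0.90 ± 0.23). 4933439K11Rik had an effect of -0.46 ± 0.15 in corpus and 0.28 ± 0.15 in cauda (difference -0.73 ± 0.22), and its 4 group means ran from 4.92 ± 0.16 in cauda control to 5.86 ± 0.19 in corpus control. 4932435O22Rik had an effect of -0.51 ± 0.20 in corpus and 0.37 ± 0.20 in cauda (difference -0.87 ± 0.28). The median difference over the 130 genes was 0.01, against -0.04 over all genes.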

How the data were processed

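Total RNA of corpus and cauda epididymidis was hybridized to whole-transcript mouse gene arrays, 3 in each of 4 groups. The authors made the deposited log2 values by robust multi-array averaging (RMA), which quantile-normalizes the arrays against each other, so a shift shared by most genes is removed. The number of arrays limits the precision. The labels describe a microRNA array, but the probe IDs match the gene array. Of 41345 probe-sets 23521 carry 1 gene symbol, 1820 several and 16004 none in the platform annotation. All 130 genes but 1 were found in RefSeq under the same symbol.

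Group means were fitted to all 12 arrays with limma 3.58.1 (R 4.3.3), tested with moderated statistics, with p-values adjusted across the whole array (Benjamini-Hochberg). The study's threshold is an unadjusted p under 0.002 and a difference over 2-fold, applied here to p-values of this fit and its alternatives, not to those of the study's ANOVA. Intervals are 95%. The fit was tested on simulated data. Named genes were the 8 largest in each direction in region comparisons at an adjusted p under 0.05, up to 12 in each direction past the study's threshold in cKO comparisons (or at an unadjusted p under 0.01 where fewer than 3 passed), up to 3 in each direction for the difference between regions, and the 8 brightest. Genes and lists were chosen with earlier results of these data known. Alternatives covered the variance, filters, scaling, arrays used, replicate numbers, probe-set choice and each array left out.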

Additional observations from a re-analysis of the deposited data

Results flagged for a closer look

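For 4921507P07Rik the test of the difference in cKO effect between regions gave 1.52 on the log2 scale (unadjusted p = 0.00116, adjusted p = 0.580 by limma). The effect was -0.48 in corpus and -2.00 in cauda. No probe-set reached an adjusted p under 0.05 in this test. The gene passed the study's threshold in 11 of 20 alternative settings and missed it without 7 of the 12 arrays in turn. In cauda all 3 cKO arrays were below all 3 control arrays, and in corpus the groups overlapped.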

How the results depend on the processing

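The study's threshold in cauda was passed by 5 genes, by 3 with each probe-set's own variance, and by 2 among the 24 members in the brighter group of 20672 probe-sets (mean above the median probe-set). Without 1 array that count ran from 2 to 7. Genes with an adjusted p under 0.05 in cauda numbered 0 in the fit reported, 1 among the brighter probe-sets, after further quantile normalization, after centring and with a random replicate block, and 2 with single-symbol probe-sets or only the arrays compared. Without 1 array they numbered 0 to 3, and in corpus 0 to 1. For cauda against corpus in control mice the count of 2 became 1 with own variances and 1 to 3 without 1 array. In cKO mice the count of 2 became 1 with own variances, among the brighter probe-sets, with only the arrays compared and with a fixed replicate block, and 1 to 2 without 1 array. For the difference between regions the count of 1 became 0 with own variances and with the fixed replicate block, and 0 to 3 without 1 array. Among the brighter probe-sets the medians moved to -0.21 for the cKO effect in corpus and -0.11 for cauda against corpus in control mice. These are the medians of the 24 brighter members, and those of the 106 dimmer members were -0.06 and 0.05. No gene named by the rule for a comparison reversed its direction there in any alternative run that tested it. The direction of the other named genes was not followed. The cause of the other changes was not tested.

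Replicate numbers were not taken as pairs, because the labels do not say which arrays share a mouse. Of 18 same-numbered pairs of arrays, 3 had deviations from the group means that correlated over 0.1 (range -0.10 to 0.21). Between corpus control and corpus cKO, which come from different mice, same-numbered arrays correlated at 0.09, 0.14 and 0.21. Differently numbered arrays of these groups correlated at -0.17 to 0.03. Whether the numbers mark a batch was not tested. With the numbers as a fixed replicate block, 5 genes passed the study's threshold in cauda, and 4932435O22Rik was lost between regions of cKO mice (adjusted p = 0.0509). Low signal limits 95 of the 130 genes, which stayed below the median of all values on every array.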
